A study of Mus musculus with 4 samples.

Results

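Virus carried into the body by T cells was compared with free virus injected into the tumor, as 1 library of tumor RNA for each route. The comparison took the library labelled TRP-1MV, called TRP-1 T-MV here, over the library labelled MV (L.i.t.), called the MV left tumor. Members are genes: of the 25239 symbols in the tables, 13357 averaged 10 or more raw counts across the series of 4 libraries, and 13348 of those had more than 3 reads in at least 1 of the libraries compared and were given a ratio. The tumors were B16, a transplantable mouse melanoma line that makes pigment, grown from 1000000 cells under the skin of B6 mice. Treatment was given on day 7 and tissue was taken 12 days after a step that the labels write as ACT. All groups had received CTX, likewise an abbreviation left unexplained, into the peritoneum the day before ACT. Mice of the TRP-1 T-MV group received 5000000 TRP-1 T cells that carried MV, by vein. Mice of the MV left tumor group received 5000000 TRP-1 T cells without virus by vein, and free MV was put into the left tumor only. Both compared groups therefore had CTX, TRP-1 T cells and virus, and the labels differ in how the virus was given. The remote tumor library came from the right, uninjected tumors of the free virus group, and the CTX library from mice with neither T cells nor virus, whose treatment label gives PBS into the left tumor. Table headers write the virus as MYXV, which usually stands for myxoma virus, a poxvirus of rabbits. The labels do not give the virus dose, the flank from which the TRP-1 T-MV tumors were taken, or how the T cells were loaded. They state n = 2 while each group has 1 column, and do not say whether mice were pooled.

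A T cell can serve as a carrier for an oncolytic virus: it leaves the blood, enters the tumor and releases the virus there, so that the whole dose need not be injected by needle. Virus in a tumor is sensed by macrophages, dendritic cells and neutrophils, the myeloid cells, which then secrete chemokines and cytokines and present antigen to T cells. TRP-1, encoded by Tyrp1, is a melanosome enzyme, and T cells specific for it recognise pigment cells. The question the design poses is whether a tumor reached by virus inside T cells looks like a tumor injected with virus, in its infiltrating cells, its pigment cells and its metabolism.

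Each group has 1 library, so there is no replicate check and no p-value. Total counts ranged from 12375526 in the MV left tumor and 14802809 in TRP-1 T-MV to 21790759 in the remote tumor. Levels are in CPM, each count divided by the TMM-scaled library total, which adjusts the totals so that most genes match. Brackets after a log2 ratio hold its exact 95% conditional binomial interval. The interval covers counting error only, not differences between mice or library preparations. A gene is called higher or lower where that interval excludes equality, and the few with a ratio of at least 2 as well are named as such. Reads of the structural RNAs Rn45s, Rpph1 and Rmrp and of the protein-coding gene Lars2 were added together. They took 1.62% of reads in TRP-1 T-MV and 1.64% in the MV left tumor, against 0.164% and 0.141% in the remote tumor and CTX. This share was thus about the same in the libraries compared. Cd3e, Cd3d and Cd3g, which define T cells, summed to 908 reads in TRP-1 T-MV, 777 in the MV left tumor, 17 in the remote tumor and 17 in CTX. The pigment genes that define melanocytes were abundant in all 4 libraries.

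The libraries of the 2 routes were close to each other, and what differed was small and tilted toward myeloid genes. Over all 13348 genes the median log2 ratio was −0.01, and the central 95% of genes lay between −0.51 and 0.69. The interval excluded equality with the gene higher in TRP-1 T-MV for 1473 genes (11.0%) and with the gene lower for 1479 (11.1%). A ratio of at least 2 was reached by 75 genes in the higher direction (0.562%) and 29 in the lower (0.217%). For scale, between the remote tumor and CTX, a pair of tumors without injected virus that also differ in treatment, the interval excluded equality for 24.7% of 13030 genes and 0.721% reached a ratio of 2. That pair was sequenced more deeply, which narrows its intervals. At 100 to 1000 mean reads the routes differed more. There 2.04% of genes differed by at least 1.5-fold between the routes and 0.269% between the virus-free libraries. At 10 to 100 mean reads the shares were alike, 18.7% and 19.4%. Counts of list members below are read against the shares of all genes called, 11.0% higher and 11.1% lower. Intervals narrow with depth, so deeply read lists pass the rule more easily and scarcely read lists less easily. The cytosolic ribosomal protein genes, for example, had 14 higher and 20 lower of 82 at a median of 0.00. Another scaling moved every ratio by at most 0.015, which ends the call, in at least 1 scaling, of these genes named below: Aim2, Asl, Cxcl10, Idh3b, Irgm2, Mc1r, Mlph, Pfas, Pmel and Tgtp2.

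Genes far more abundant in the compared libraries than in the virus-free libraries were higher more often than the rest. These pairs of libraries also differ in the share of structural RNA and Lars2 given above, and Lars2 held 16.8% of the reads of the class at least 10-fold above. Of the 934 genes whose mean level in the compared libraries was at least 10-fold above that in the virus-free libraries, 411 were higher with the carried virus and 18 lower, with a median log2 ratio of 0.31. Among the 9336 genes within 2-fold of the virus-free libraries, 697 were higher and 1188 lower, with a median of −0.02. Within the class at least 10-fold above, the myeloid members had larger ratios than the lymphoid members. Of the 72 members of the myeloid lists in the class at least 10-fold above, 60 were higher and 2 lower, with a median of 0.59. Of the 93 members of the lymphoid lists in the same class, 22 were higher and 2 lower, with a median of 0.08. In a bulk sample, fewer cells of a type and less RNA per cell cannot be told apart, nor can more of either.

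**Figure D1:**
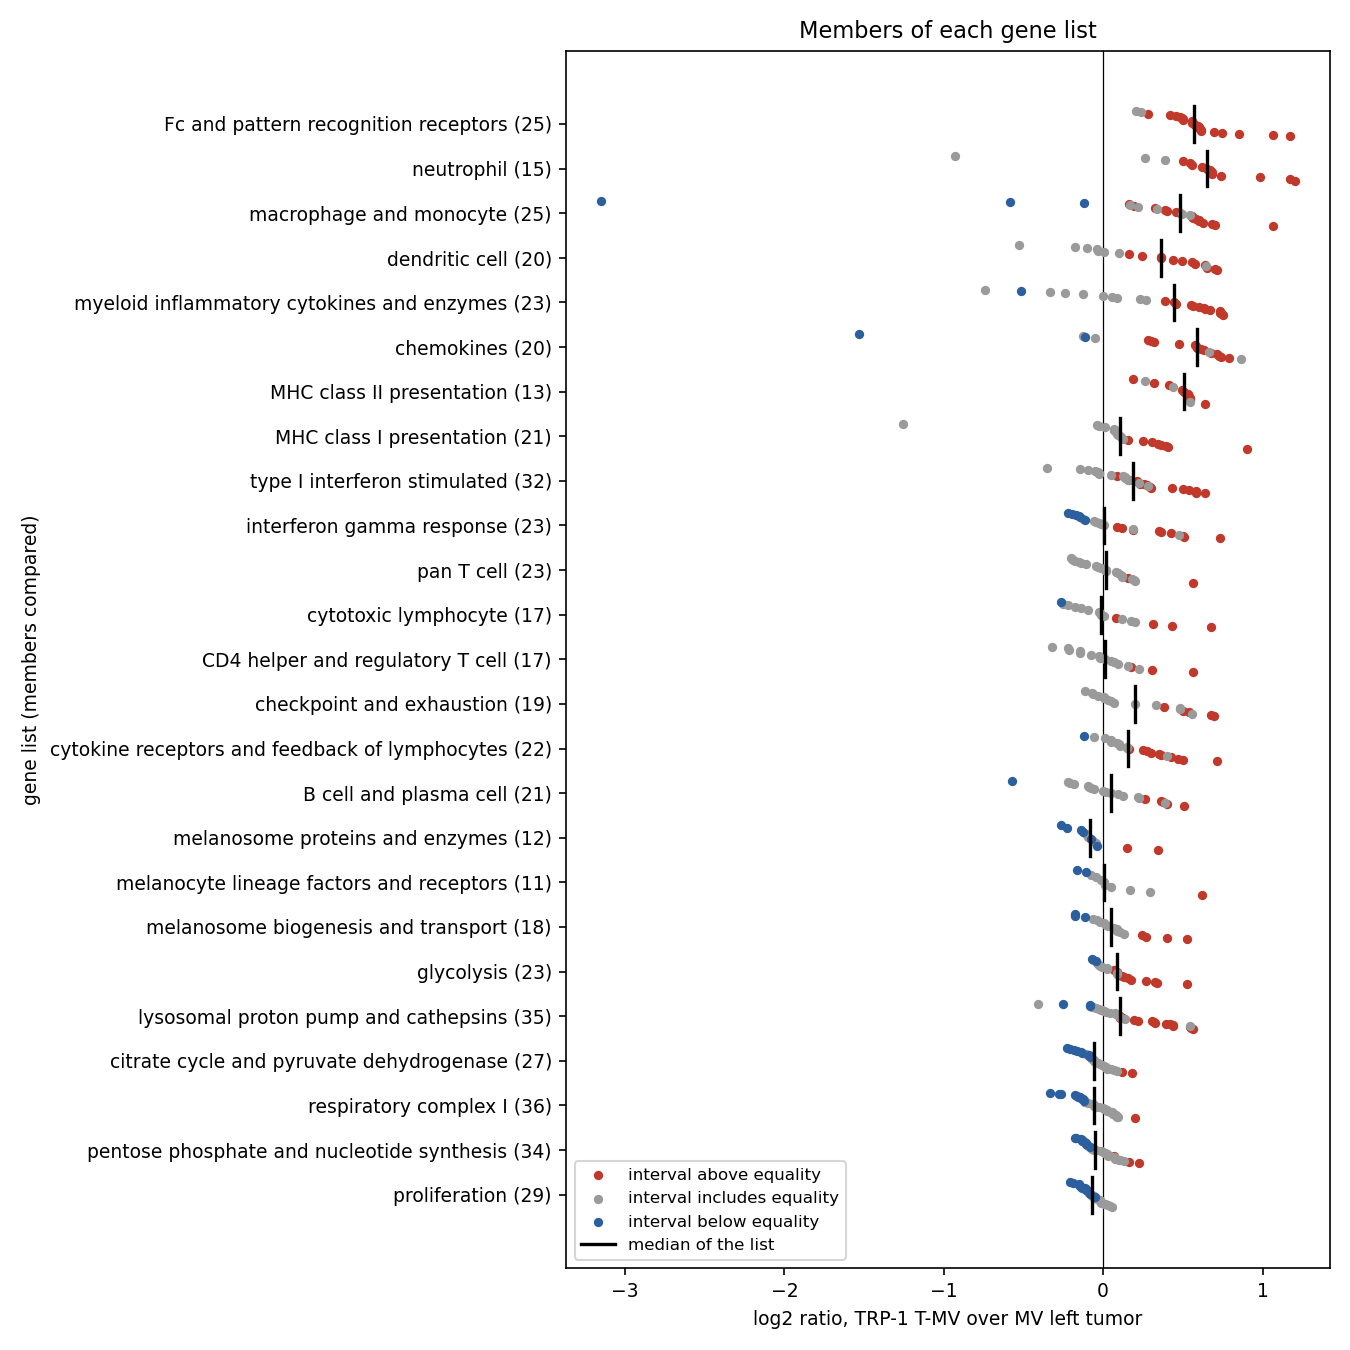
Log2 ratio of TRP-1 T-MV over the MV left tumor for each member compared (points) in 25 gene lists (rows, number of members in brackets), with the list median as a black bar and colour for whether the 95% counting interval lies above, around or below equality. The medians of the myeloid lists and of MHC class II sit between 0.36 and 0.65, those of the pan T cell and cytotoxic lists at 0.02 and −0.01, and Lyz1 is the lone point near −3.15.

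With the carried virus most myeloid genes were higher. List medians were 0.57 for receptors, 0.65 for neutrophil genes, 0.44 for cytokines and enzymes and 0.59 for chemokines, and single members spread more widely. Some genes, such as Trem1 and Cxcl3, stand in several of these lists, so the lists are not independent. Of 121 members compared in the myeloid lists, 82 were higher, 6 lower and 33 had an interval that included equality. The median log2 ratio was 0.55, with quartiles of 0.23 and 0.64. Their summed level was 8766 CPM in TRP-1 T-MV, 6154 in the MV left tumor, 1782 in the remote tumor and 1712 in CTX, for a log2 ratio of 0.51 [0.50, 0.52]. The 31 members in the tables that were not compared held 176 reads in TRP-1 T-MV and 142 in the MV left tumor. The same lists had a median of 0.18 in the remote tumor over CTX, with 27 of 103 members higher and 2 lower, at far lower levels.

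Receptors that sense microbes and antibody were higher almost throughout. Of 25 Fc and pattern recognition receptors and their adaptors, 23 were higher and 0 lower, with a median of 0.57, and all 25 had a ratio above 0. Trem1, an amplifier of inflammation on neutrophils and monocytes, had 215 reads in TRP-1 T-MV, 80 in the MV left tumor, 0 in the remote tumor and 0 in CTX, for a log2 ratio of 1.17 [0.80, 1.56]. Trem2, a lipid receptor of tissue macrophages, had 25.7 CPM in TRP-1 T-MV, 12.3 in the MV left tumor, 1.66 in the remote tumor and 0.991 in CTX, a ratio of 1.07 [0.80, 1.33]. Both passed the 2-fold rule. Trem1 was at 0 in both virus-free libraries, and Trem2 was already present there.

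Toll-like receptors bind microbial lipids and nucleic acids, and all 8 compared were higher, between 0.28 and 0.74. Tlr13, a receptor for bacterial ribosomal RNA, had 40.9 CPM in TRP-1 T-MV, 24.4 in the MV left tumor, 0.754 in the remote tumor and 1.15 in CTX, for a log2 ratio of 0.74 [0.55, 0.94]. Tlr9, the receptor for CpG DNA, stood at 0.61, and Tlr2, for lipopeptides, at 0.60. Tlr4, the receptor for lipopolysaccharide, was the lowest of the 8 at 0.28 [0.14, 0.43]. It was also the member whose TMM-scale level was alike in all 4 libraries, with 56.8 CPM in TRP-1 T-MV, 46.7 in the MV left tumor, 54.3 in the remote tumor and 62.1 in CTX.

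Fc gamma receptors bind the constant part of IgG, and 3 of the 4 compared were higher. Fcgr3 had 163 CPM in TRP-1 T-MV, 108 in the MV left tumor, 4.52 in the remote tumor and 5.27 in CTX, a ratio of 0.60 [0.51, 0.69]. Fcgr2b, the inhibitory member, was higher by 0.50 [0.37, 0.63] and Fcgr1, the high-affinity member, by 0.48 [0.25, 0.72]. Fcgr4 had a ratio of 0.21 [−0.25, 0.68], an interval that includes equality. Fcer1g, the signalling chain of Fcgr1, Fcgr3 and Fcgr4, had 123 CPM in TRP-1 T-MV, 81.1 in the MV left tumor, 13.6 in the remote tumor and 10.2 in CTX. It was higher by 0.60 [0.50, 0.71]. The C-type lectins, which recognise fungal and bacterial sugars, moved by like amounts, with Clec7a at 0.62, Clec4n at 0.58, Clec4d at 0.56 and Clec4e at 0.50.

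Promoters of these receptors were searched because most of their genes were higher and because myeloid genes are known for sites of the ETS factor PU.1. The windows shown are of genes with a match. RefSeq windows of 300 bases (GRCm38.p6, from 250 bases before to 50 after the start) were matched for 20 of the 25 receptors. The letters AGGAAGT, a short ETS core, stood on either strand in 6 of these 20, against 10.8% of the 10632 compared genes with a window. The longer GAGGAAGT, which contains it, stood in 3 of 20, against 3.86%. The short core was as frequent among the pan T cell genes described below, in 5 of 15, and stood in 7 of 32 respiratory complex I genes. A match is a description of letters and not of a bound site. Capitals mark the matched letters, which in all 3 windows lie on the other strand and begin at −109 in Trem1 (chr17:48232489-48232788, plus strand), −61 in Fcgr1 (chr3:96293920-96294219, minus strand) and −24 in Fcgr4 (chr1:171018676-171018975, plus strand), counted from the start base as 0.
Trem1: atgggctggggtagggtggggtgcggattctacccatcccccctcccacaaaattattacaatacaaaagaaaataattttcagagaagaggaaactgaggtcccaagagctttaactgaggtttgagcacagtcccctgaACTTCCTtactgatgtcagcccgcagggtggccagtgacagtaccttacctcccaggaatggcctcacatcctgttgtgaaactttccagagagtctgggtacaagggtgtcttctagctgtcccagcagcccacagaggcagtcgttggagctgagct
Fcgr1: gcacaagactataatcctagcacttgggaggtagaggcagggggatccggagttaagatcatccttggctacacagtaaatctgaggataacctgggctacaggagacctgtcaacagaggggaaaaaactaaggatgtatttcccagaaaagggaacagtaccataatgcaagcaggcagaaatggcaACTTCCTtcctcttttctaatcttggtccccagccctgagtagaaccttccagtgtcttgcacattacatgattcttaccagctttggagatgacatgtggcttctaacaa
Fcgr4: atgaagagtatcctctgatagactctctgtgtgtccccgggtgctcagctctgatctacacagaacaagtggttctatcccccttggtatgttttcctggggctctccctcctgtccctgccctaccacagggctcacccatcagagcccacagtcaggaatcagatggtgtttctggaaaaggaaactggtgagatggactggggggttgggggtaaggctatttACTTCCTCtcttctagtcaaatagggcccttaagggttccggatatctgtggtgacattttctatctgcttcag
Among the windows shown, Fcgr4 has the longer match and is the receptor with the smallest ratio of the list, not called. Trem1, with the short match, is the one with the largest.

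Genes of the neutrophil list, which holds granule and surface genes and also others such as the chemokine Cxcl3, were higher as a group. Cxcl3 held 30.9% of the list's reads, and without it the summed log2 ratio was 0.64 [0.60, 0.69]. Of 15 compared, 12 were higher and 0 lower, with a median of 0.65, and 3 had intervals that included equality. Mmp8, the neutrophil collagenase, had 3687 reads in TRP-1 T-MV, 1929 in the MV left tumor, 1 in the remote tumor and 1 in CTX, for a log2 ratio of 0.68 [0.60, 0.76]. Lcn2, which withholds iron from bacteria, had 285 CPM in TRP-1 T-MV, 185 in the MV left tumor, 0.553 in the remote tumor and 0.469 in CTX, a ratio of 0.62 [0.55, 0.69]. Ngp and Ltf, granule proteins, had 237 reads against 125 and 105 reads against 56 in the compared pair and 0 in the virus-free tumors, with ratios of 0.67 and 0.65. S100a9, a chain of calprotectin, passed the 2-fold rule with 140 reads in TRP-1 T-MV, 51 in the MV left tumor, 1 in the remote tumor and 2 in CTX, a ratio of 1.20 [0.73, 1.70]. Its partner S100a8 had 75 reads against 48, a ratio of 0.39 [−0.15, 0.94]. G0s2, a lipase inhibitor, had 5 reads in TRP-1 T-MV, 8 in the MV left tumor, 90 in the remote tumor and 97 in CTX and an interval that included equality, and was higher in the virus-free tumors. The classical neutrophil marker Ly6g was not compared, with 3 reads in TRP-1 T-MV and 1 in the MV left tumor, and the granule enzymes Elane and Mpo had 7 reads each in TRP-1 T-MV against 3 and 8.

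Macrophage and monocyte genes were higher except for a few that went the other way. Of 25 compared, 17 were higher and 3 lower, with a median of 0.48. Itgam, the CD11b integrin chain, had 253 CPM in TRP-1 T-MV, 169 in the MV left tumor, 2.91 in the remote tumor and 1.98 in CTX, for a log2 ratio of 0.58 [0.51, 0.66]. Csf1r, the receptor for the macrophage growth factor, had 141 CPM in TRP-1 T-MV, 87.8 in the MV left tumor, 6.08 in the remote tumor and 4.12 in CTX, a ratio of 0.68 [0.58, 0.78]. Adgre1, the F4/80 antigen, had 174 CPM in TRP-1 T-MV, 114 in the MV left tumor, 3.77 in the remote tumor and 1.77 in CTX, a ratio of 0.60 [0.51, 0.69]. On the TMM scale all 3 were at least 10-fold above the virus-free tumors in both compared libraries, and the step between the compared libraries was small beside that. Spi1, which encodes PU.1, was higher by 0.62 [0.46, 0.79].

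Complement C1q chains, made by tissue macrophages, were higher by less. C1qa, C1qb and C1qc summed to 1252 reads in TRP-1 T-MV, 862 in the MV left tumor, 830 in the remote tumor and 646 in CTX, for a log2 ratio of 0.29 [0.16, 0.41]. The monocyte marker Ly6c2 was higher by 0.16 [0.03, 0.30], and Ccr2, the receptor that draws monocytes from blood, was lower with 69 reads in TRP-1 T-MV, 87 in the MV left tumor, 25 in the remote tumor and 36 in CTX, a ratio of −0.59 [−1.06, −0.12]. Apoe, a lipid carrier abundant in the virus-free tumors too, had 208 CPM in TRP-1 T-MV, 226 in the MV left tumor, 676 in the remote tumor and 662 in CTX and was lower, with a ratio of −0.12 [−0.19, −0.05]. Mrc1, Mertk, Ms4a7, Cx3cr1 and Aif1 had ratios above 0 and intervals that included equality.

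The lysozyme genes went opposite ways. Lyz2, the macrophage lysozyme, had 8765 reads in TRP-1 T-MV, 5005 in the MV left tumor, 674 in the remote tumor and 516 in CTX, a ratio of 0.56 [0.50, 0.61]. Lyz1, its near-identical neighbour at chr10:117287797-117292868 on the minus strand, had 9 reads in TRP-1 T-MV, 67 in the MV left tumor, 2 in the remote tumor and 6 in CTX, a ratio of −3.15 [−4.34, −2.14], the lowest of all genes compared. Reads shared by such paralogs can be lost or placed with either gene, and how the counting treated them is not given in the sources used here, so the value of Lyz1 is uncertain.

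Dendritic cell genes were higher or not called. Of 20 compared, 12 were higher and 0 lower, with a median of 0.36. Ccl22, a chemokine of mature dendritic cells and macrophages, had 13007 reads in TRP-1 T-MV, 6648 in the MV left tumor, 5 in the remote tumor and 8 in CTX, for a log2 ratio of 0.72 [0.67, 0.76]. Fscn1, the actin bundler of migrating dendritic cells, had 182 CPM in TRP-1 T-MV, 112 in the MV left tumor, 3.62 in the remote tumor and 4.12 in CTX, a ratio of 0.70 [0.61, 0.79]. Ccr7, the receptor that guides them to lymph nodes, was higher by 0.56 [0.46, 0.65], Cd83 by 0.64 [0.46, 0.82] and Ccl17 by 0.58 [0.43, 0.72]. Itgax, the CD11c integrin chain, was higher by 0.65 [0.48, 0.82] and Sirpa, a receptor of conventional dendritic cells and macrophages, by 0.36 [0.29, 0.44]. Sirpa was more abundant in the virus-free tumors, with 217 CPM in TRP-1 T-MV, 169 in the MV left tumor, 341 in the remote tumor and 343 in CTX. The lineage receptor Flt3 (24 reads against 29) and the factors Zbtb46 and Batf3, at −0.53, −0.18 and −0.04, had intervals that included equality. Xcr1 and Clec9a, markers of cross-presenting dendritic cells, were below the minimum with 8 and 5 reads in TRP-1 T-MV against 13 and 9 in the MV left tumor.

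Secreted myeloid products were higher in somewhat more than 50% of the list. Of 23 cytokines and enzymes compared, 13 were higher, 1 lower and 9 neither, with a median of 0.44. Il1a, an alarm cytokine, had 1714 reads in TRP-1 T-MV, 853 in the MV left tumor, 6 in the remote tumor and 1 in CTX, for a log2 ratio of 0.75 [0.63, 0.87]. Il1b had 2038 reads in TRP-1 T-MV, 1159 in the MV left tumor, 70 in the remote tumor and 11 in CTX, a ratio of 0.56 [0.46, 0.67]. Nlrp3, the inflammasome sensor that drives release of mature interleukin-1 beta, was higher by 0.75 [0.49, 1.01]. These genes were low in CTX and somewhat higher in the remote tumor, where Il1b had 70 reads against 11, so the virus-free libraries differed from each other as well. Over this list the remote tumor over CTX had a median of 0.98, with 8 of 17 higher.

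The enzymes Nos2 and Arg1, which both use arginine and are often set against each other as marks of opposed macrophage states, were both higher. Nos2 had 77.4 CPM in TRP-1 T-MV, 46.6 in the MV left tumor, 1.11 in the remote tumor and 0.365 in CTX, a ratio of 0.73 [0.59, 0.87]. Arg1 had 167 CPM in TRP-1 T-MV, 108 in the MV left tumor, 2.01 in the remote tumor and 1.41 in CTX, a ratio of 0.64 [0.54, 0.73]. Among cytokines that steer T cells, Il12a was higher by 0.73 [0.25, 1.23] and Il12b by 0.39 [0.12, 0.66]. Il10, which restrains macrophages, was lower with 104 reads in TRP-1 T-MV, 125 in the MV left tumor, 1 in the remote tumor and 1 in CTX, a ratio of −0.52 [−0.91, −0.13]. Tnf had 268 reads in TRP-1 T-MV, 265 in the MV left tumor, 143 in the remote tumor and 24 in CTX, a ratio of −0.24 [−0.49, 0.01], and Il23a, Csf3 and Il18 also had ratios below 0 with intervals that included equality. Csf1, the macrophage growth factor, had 81.6 CPM in TRP-1 T-MV, 81.6 in the MV left tumor, 40.0 in the remote tumor and 41.4 in CTX, a ratio of 0.00 [−0.12, 0.12].

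Chemokines were higher in 14 of 20 and lower in 2, with a median of 0.59. Ccl2, which attracts monocytes, had 102 CPM in TRP-1 T-MV, 59.1 in the MV left tumor, 1.71 in the remote tumor and 2.14 in CTX, for a log2 ratio of 0.79 [0.67, 0.91]. The neutrophil attractants Cxcl3, Cxcl5, Cxcl2 and Cxcl1 were higher by 0.74, 0.73, 0.61 and 0.47. Ccl6 and Ccl9, made by myeloid cells, were higher by 0.63 and 0.59. Ccl5, which attracts T cells and monocytes, was higher by 0.67 [0.61, 0.73]. Cxcl10 had 1467 reads in TRP-1 T-MV, 1334 in the MV left tumor, 687 in the remote tumor and 701 in CTX and was lower, at −0.12 [−0.22, −0.01], and Cxcl9 had 109 reads in TRP-1 T-MV, 100 in the MV left tumor, 158 in the remote tumor and 157 in CTX, a ratio of −0.13 [−0.53, 0.28]. Cxcl12, of stromal cells, was lower with 7 reads against 17.

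**Figure D2:**
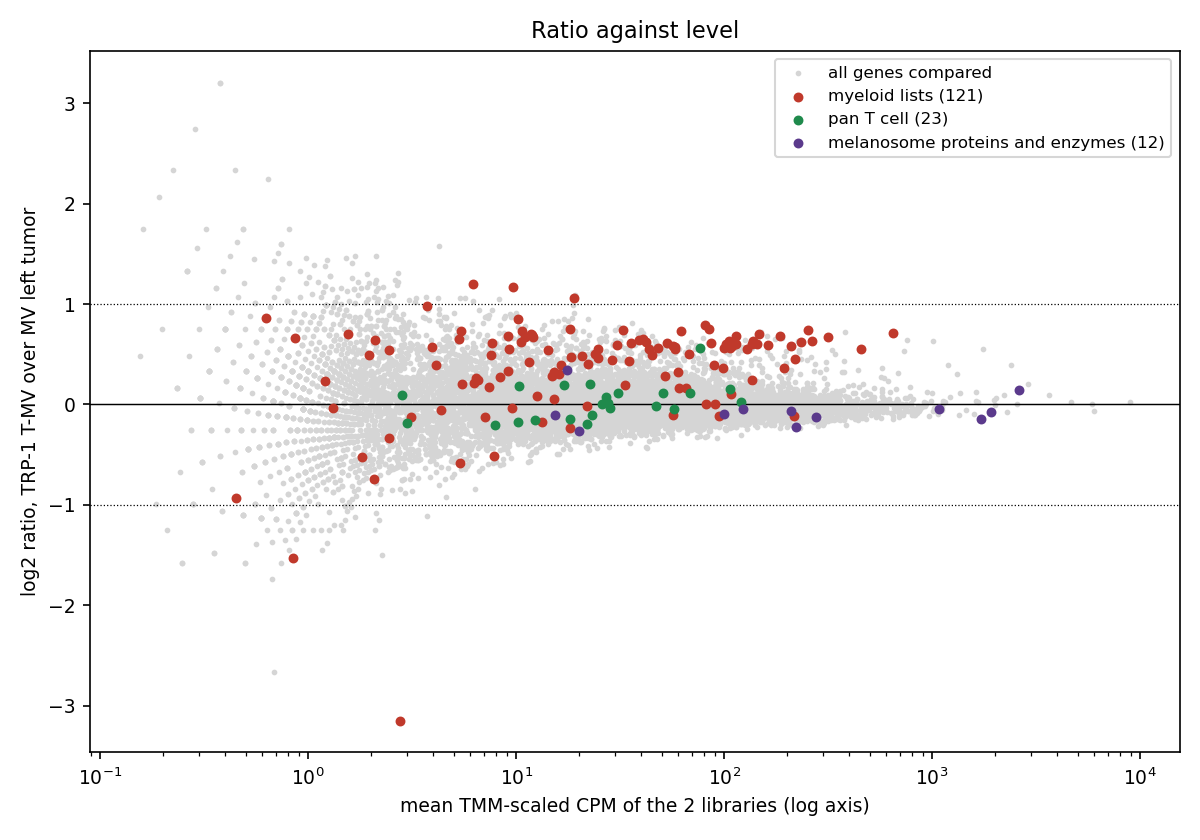
Log2 ratio of TRP-1 T-MV over the MV left tumor (vertical axis) against the mean TMM-scaled CPM of these libraries (horizontal log axis) for the 13348 genes compared (grey), with the myeloid lists in red, the pan T cell list in green and melanosome genes in purple; dotted lines mark a ratio of 2, and a library with 0 reads is set to 3 counts. Most red points lie above 0 across levels, with a myeloid median of 0.55, while the green points lie around 0.

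T cell genes were at nearly the same level by either route. Of 23 pan T cell genes compared, 2 were higher and 0 lower, with a median of 0.02, against 11.0% and 11.1% of all genes. The receptor chains Cd3e, Cd3d and Cd3g gave a summed log2 ratio of −0.03 [−0.17, 0.11]. This interval lies wholly below that of the summed myeloid genes. Thy1 had 122 CPM in TRP-1 T-MV, 119.9 in the MV left tumor, 2.76 in the remote tumor and 2.61 in CTX, a ratio of 0.02 [−0.08, 0.12]. Cd28, the costimulatory receptor, stood at −0.01 [−0.17, 0.14], and the kinases Lck and Zap70 at −0.05 and 0.00. The 2 called members were Fyb, an adaptor that myeloid cells use as well, at 0.57 [0.44, 0.69], and Itgal, the LFA-1 integrin chain of all leukocytes, at 0.15 [0.05, 0.26].

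Cytotoxic genes had a median at equality too. Of 17 compared, 4 were higher and 1 lower, with a median of −0.01. Their summed reads had a log2 ratio of 0.31 [0.27, 0.35], but Ccl5, a chemokine that macrophages also make, held 43.6% of those reads, and without it the ratio was 0.04 [−0.01, 0.09]. Gzmb, the main killer protease, had 217 CPM in TRP-1 T-MV, 205 in the MV left tumor, 1.26 in the remote tumor and 1.41 in CTX, a ratio of 0.08 [0.01, 0.16]. Ifng had 38.8 CPM in TRP-1 T-MV, 39.3 in the MV left tumor, 0.151 in the remote tumor and 0.104 in CTX, a ratio of −0.02 [−0.19, 0.15]. Prf1, the pore protein, had 142 reads in TRP-1 T-MV, 110 in the MV left tumor, 12 in the remote tumor and 5 in CTX, a ratio of 0.12 [−0.25, 0.49]. The CD8 chains Cd8a and Cd8b1 summed to a ratio of −0.12 [−0.33, 0.09], and Cd4 had 0.09 [−0.13, 0.32]. Nkg7, a granule membrane protein, was lower, at −0.27 [−0.47, −0.07].

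Of 17 helper and regulatory T cell genes, 3 were higher and 0 lower, with a median of 0.01. Of 14 naive and memory genes, 3 were higher and 0 lower, with a median of 0.08 and a summed log2 ratio of 0.14 [0.11, 0.18]. Il2ra, the alpha chain of the interleukin-2 receptor, had 418 CPM in TRP-1 T-MV, 415 in the MV left tumor, 0.352 in the remote tumor and 0.730 in CTX, for a log2 ratio of 0.01 [−0.04, 0.06]. Foxp3, the factor of regulatory T cells, had 40 reads in TRP-1 T-MV, 39 in the MV left tumor, 9 in the remote tumor and 9 in CTX, and its interval included equality at −0.22 [−0.89, 0.46]. Satb1, a chromatin organiser of T cells, stood at 0.01. Il7r, the interleukin-7 receptor, was the member of these lists farthest from equality, with 50.3 CPM in TRP-1 T-MV, 30.7 in the MV left tumor, 0.352 in the remote tumor and 0.626 in CTX, a ratio of 0.71 [0.54, 0.89]. Ikzf4, a partner of Foxp3, was higher by 0.57 [0.24, 0.90], and the transcription factors Maf, Bhlhe40 and Klf2 by 0.31, 0.17 and 0.35. Ccr7, already named with dendritic cells, completed the higher members.

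Within the checkpoint list, the members called higher were mostly ligands and receptors that myeloid cells carry. Most of those on T cells were not called. Some of the latter, such as Pdcd1 and Tigit, had few reads and wide intervals, so a missing call there does not show equality. Which cells the reads came from was not tested. Vsir, which encodes VISTA, had 47.7 CPM in TRP-1 T-MV, 29.5 in the MV left tumor, 1.51 in the remote tumor and 1.88 in CTX, for a log2 ratio of 0.70 [0.52, 0.88]. Cd274, which encodes PD-L1, had 93.1 CPM in TRP-1 T-MV, 65.9 in the MV left tumor, 11.9 in the remote tumor and 10.7 in CTX, a ratio of 0.50 [0.38, 0.62], and Pdcd1lg2, for PD-L2, was higher by 0.38 [0.03, 0.75]. Their receptor gene Pdcd1 had 64 reads in TRP-1 T-MV, 58 in the MV left tumor, 4 in the remote tumor and 2 in CTX, a ratio of −0.11 [−0.65, 0.43]. Ctla4 stood at 0.05 [−0.23, 0.32], Lag3 at 0.20 [−0.19, 0.59] and Tigit, with 65 reads against 37, at 0.56 [−0.04, 1.18]. Tnfrsf9, the costimulatory receptor 4-1BB, was an exception with 189.7 CPM in TRP-1 T-MV, 131 in the MV left tumor, 2.41 in the remote tumor and 2.09 in CTX, a ratio of 0.54 [0.45, 0.62]. Cd200r1, an inhibitory receptor of myeloid cells and some T cells, was higher by 0.68 [0.34, 1.03]. In all, 5 of 19 were higher and 0 lower, 15 had a ratio above 0, and the median stood at 0.20.

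Cytokine receptors and their feedback genes had the most higher members of the lymphoid lists, with 10 of 22 higher, 1 lower and a median of 0.16. Il4ra was higher by 0.47 [0.34, 0.59], the common chain Il2rg by 0.36 [0.25, 0.47], and Il21r by 0.30 [0.16, 0.44]. The feedback inhibitors Socs1 and Socs2 were higher by 0.43 and 0.50. Il2rb and Il18r1 stood at 0.05 and −0.06 and Stat5b was lower, at −0.12 [−0.21, −0.03]. Many of these genes are used by myeloid cells as well, and what part those cells had was not tested.

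B cell genes were mixed and NK genes scarce. Of 21 B and plasma cell genes compared, 5 were higher and 1 lower, with a median of 0.05. Cd79a, of the B cell receptor, was higher by 0.38 [0.08, 0.68] and Blnk, its adaptor, by 0.40 [0.19, 0.60], whereas Ms4a1, encoding CD20, had 208 reads in TRP-1 T-MV, 186 in the MV left tumor, 1 in the remote tumor and 0 in CTX, a ratio of −0.09 [−0.38, 0.20]. Bank1, a B cell adaptor, was lower with 65 reads against 81, at −0.57 [−1.06, −0.08]. The NK receptor Ncr1 had 4 reads in TRP-1 T-MV and 1 in the MV left tumor, and none of the 6 NK list members compared was called.

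Y-linked genes can mark male cells, and the labels do not give the sex of the tumor hosts or of the T cell donors. Ddx3y had 161 reads in TRP-1 T-MV, 95 in the MV left tumor, 2 in the remote tumor and 0 in CTX, for a log2 ratio of 0.51 [0.13, 0.89]. Kdm5d, Eif2s3y and Uty stood at 0.46, 0.27 and 0.23, and the 4 genes summed to 449 reads in TRP-1 T-MV, 291 in the MV left tumor, 2 in the remote tumor and 0 in CTX, a ratio of 0.37 [0.16, 0.59]. Xist, expressed from an inactive X, had 553 reads in TRP-1 T-MV, 504 in the MV left tumor, 48 in the remote tumor and 31 in CTX, a ratio of −0.12 [−0.30, 0.06]. Y-linked reads were nearly absent without virus and Xist reads were fewer there.

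**Figure D3:**
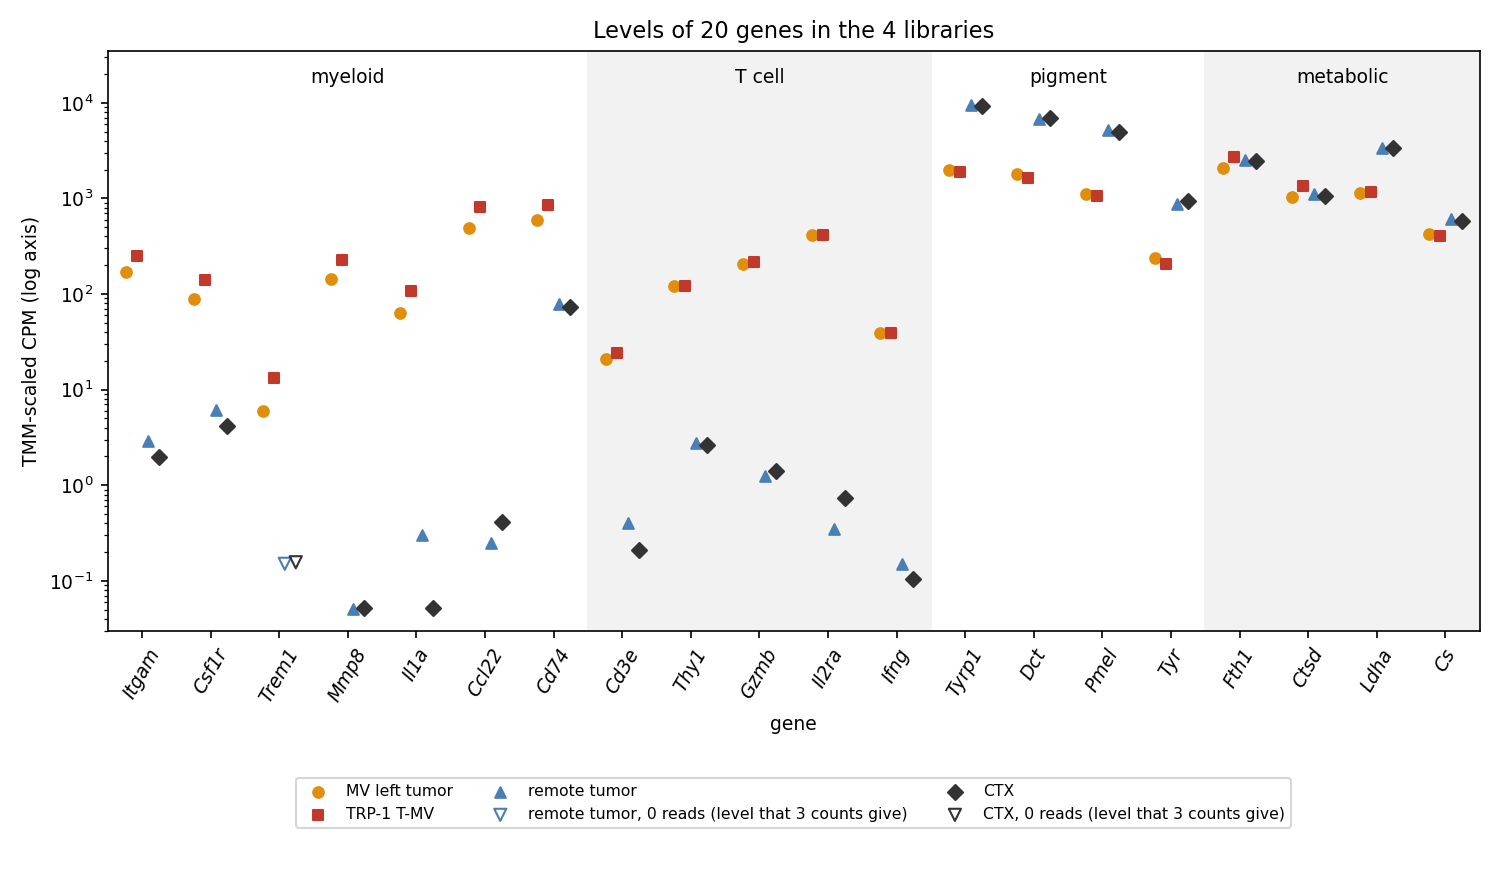
TMM-scaled CPM (vertical log axis) of 20 genes in the MV left tumor, TRP-1 T-MV, the remote tumor and CTX, 1 library each; open triangles mark a library with 0 reads, drawn at the level 3 counts would give. The 7 myeloid genes are higher in TRP-1 T-MV than in the MV left tumor, the T cell markers nearly coincide, and the 4 pigment genes are slightly lower in TRP-1 T-MV and far below the virus-free libraries in both.

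The antigen presentation lists differed in their medians. MHC class II genes, which load antigen for CD4 T cells in professional presenting cells, were higher in 10 of 13 and lower in 0, with a median of 0.51. Cd74, the invariant chain, had 862 CPM in TRP-1 T-MV, 595 in the MV left tumor, 79.1 in the remote tumor and 74.0 in CTX, for a log2 ratio of 0.54 [0.50, 0.58]. H2-Aa, H2-Ab1 and H2-Eb1, the class II chains, were higher by 0.53, 0.49 and 0.55, and Ciita, their master regulator, by 0.51 [0.25, 0.76]. The list for MHC class I, which most cells express, also holds transporters and loading genes. It had 9 of 21 higher and 0 lower, with a smaller median of 0.10. B2m, the shared light chain, had 1461 CPM in TRP-1 T-MV, 1181 in the MV left tumor, 795 in the remote tumor and 753 in CTX, a ratio of 0.31 [0.28, 0.34]. H2-K1 and H2-D1 were higher by 0.34 and 0.41, while the transporters Tap1 and Tap2 stood at 0.06 [−0.02, 0.15] and 0.10 [−0.03, 0.24]. The loading genes Calr and Pdia3 stood at 0.07 and −0.04. H2-M3 was the highest member at 0.90 [0.53, 1.28], and H2-T22 was the lowest at −1.25 and not called. The class I heavy chain genes, such as H2-K1 and H2-D1, are a family of close paralogs, so their single values are uncertain.

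Interferon genes separated by type. Of 32 type I interferon stimulated genes, 16 were higher and 0 lower, with a median of 0.19. Oas2 and Oas3, which make the signal for RNA decay, were higher by 0.64 [0.32, 0.96] and 0.54 [0.33, 0.75], Mx1 by 0.58 [0.39, 0.78] and Irf7, the amplifier of interferon production, by 0.58 [0.43, 0.73]. Irf7 had 62.7 CPM in TRP-1 T-MV, 42.0 in the MV left tumor, 4.07 in the remote tumor and 5.42 in CTX. Ifit1, Ifit2, Ifit3, Isg15 and Rsad2, equally familiar members, had intervals that included equality, at 0.22, −0.04, 0.05, 0.14 and 0.12. Oas1g, outside the list, passed the 2-fold rule with 180 reads in TRP-1 T-MV, 73 in the MV left tumor, 176 in the remote tumor and 192 in CTX, a ratio of 1.05 [0.65, 1.46]. It belongs to a cluster of near-identical genes.

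Of 23 interferon gamma response genes, 9 were higher and 6 lower, with a median of 0.00. Nos2, Ciita and Cd274, given above, were among the higher members, as was Irf8, a factor of monocytes and dendritic cells, at 0.36 [0.25, 0.47]. The lower ones were Cxcl10, Irf1, Irgm2, Igtp, Tgtp2 and Iigp1. The immunity-related GTPases Irgm1, Irgm2, Igtp, Tgtp1, Tgtp2 and Iigp1, which attack vacuoles of intracellular microbes, summed to 6739 reads in TRP-1 T-MV, 6180 in the MV left tumor, 7896 in the remote tumor and 8238 in CTX, for a log2 ratio of −0.13 [−0.18, −0.08], and 4 of the 6 were lower. Guanylate binding proteins, also interferon gamma targets, were higher in 3 of 8, with a summed ratio of 0.09 [0.04, 0.15]. Irf1 had 81.0 CPM in TRP-1 T-MV, 89.5 in the MV left tumor, 53.8 in the remote tumor and 52.5 in CTX, a ratio of −0.14 [−0.26, −0.03].

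Sensors of nucleic acid and executors of inflammatory cell death were higher in 10 of 20 and lower in 0, with a median of 0.20. Gsdmd, the pore-forming gasdermin, had 338 reads in TRP-1 T-MV, 171 in the MV left tumor, 74 in the remote tumor and 66 in CTX, a ratio of 0.73 [0.46, 1.00]. Mavs, the mitochondrial adaptor of RNA sensing, was higher by 0.43 [0.27, 0.60], Casp4 by 0.43 [0.12, 0.74] and Aim2, a DNA sensor, by 0.37 [0.00, 0.75]. The DNA sensor Cgas and its adaptor Sting1 stood at −0.12 [−0.31, 0.08] and 0.09 [−0.03, 0.21], both intervals including equality.

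**Figure D4:**
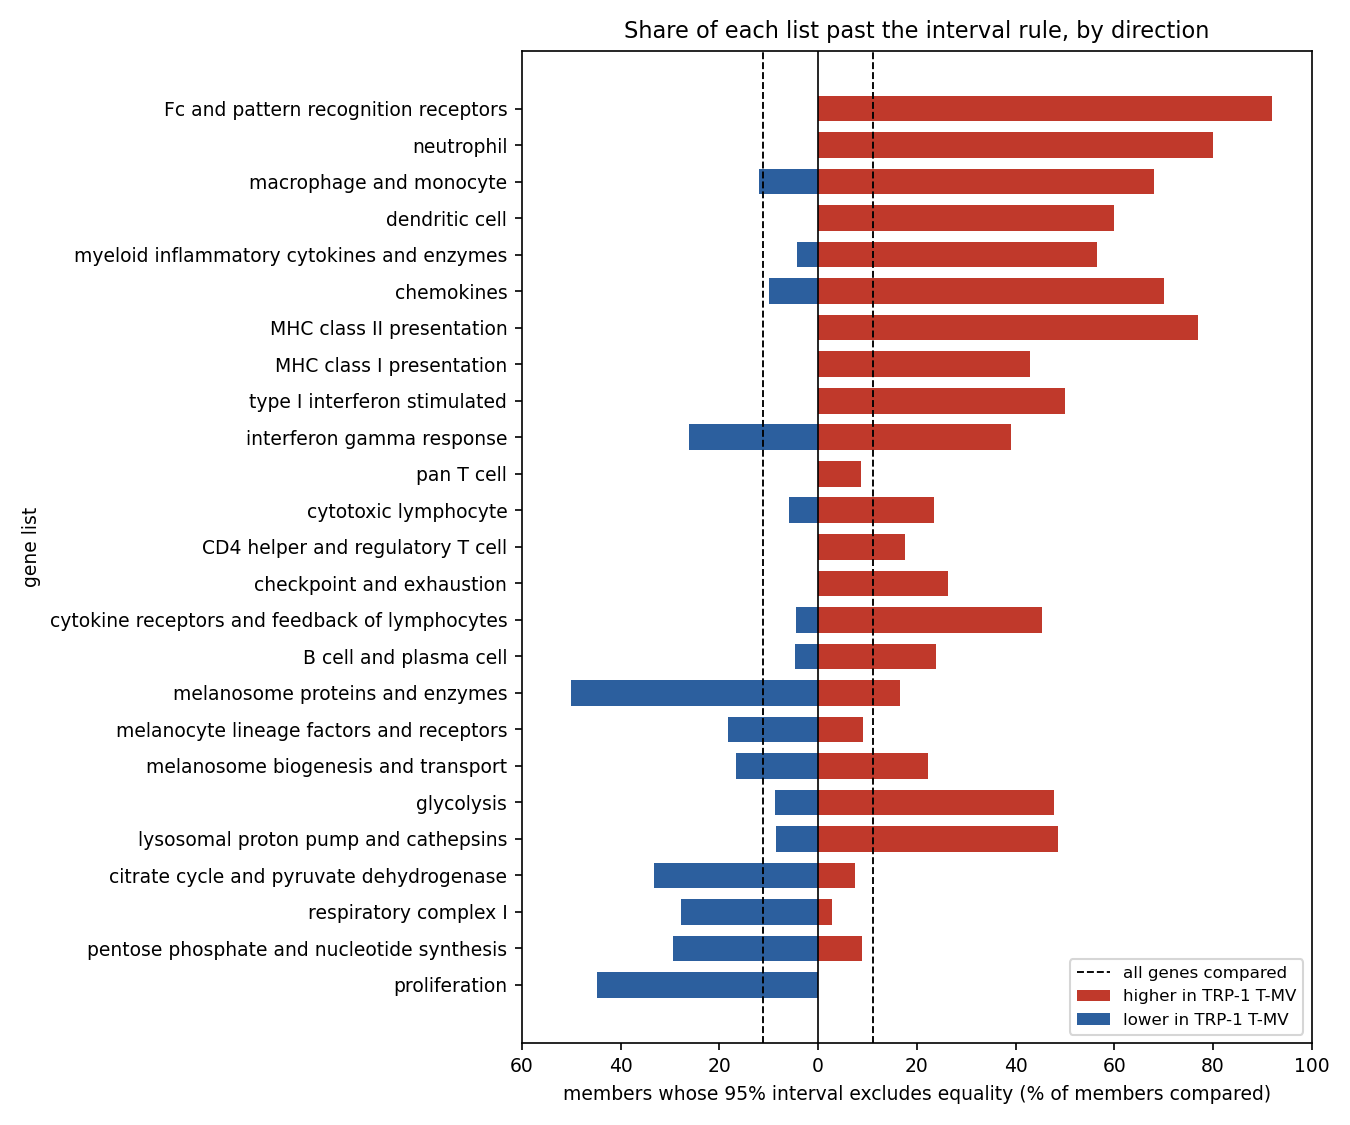
Percentage of the members compared in each of 25 gene lists (rows) whose 95% counting interval excludes equality, with members higher in TRP-1 T-MV to the right in red and lower to the left in blue; dashed lines mark the shares over all genes, 11.0% higher and 11.1% lower. Fc and pattern receptors reach 92.0% higher, whereas melanosome and proliferation genes extend to the left, with 6 of 12 and 13 of 29 lower.

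Pigment genes were nearly level, with the melanosome enzymes slightly lower in TRP-1 T-MV. Of 56 members compared in the pigment lists, 8 were higher and 14 lower, with a median log2 ratio of −0.01. Among 12 melanosome proteins and enzymes, 2 were higher and 6 lower, with a median of −0.09. Tyrp1, the gene of the T cells' target, had 30127 reads in TRP-1 T-MV, 26645 in the MV left tumor, 190866 in the remote tumor and 179384 in CTX, a ratio of −0.08 [−0.10, −0.05]. Dct, the related tautomerase, had 1629 CPM in TRP-1 T-MV, 1798 in the MV left tumor, 6836 in the remote tumor and 6896 in CTX, a ratio of −0.14 [−0.17, −0.12]. Tyr, the rate-limiting enzyme of melanin synthesis, had 204 CPM in TRP-1 T-MV, 238 in the MV left tumor, 875 in the remote tumor and 937 in CTX, a ratio of −0.22 [−0.29, −0.15]. Slc45a2 and Oca2, melanosome transporters, were lower, at −0.12 [−0.19, −0.06] and −0.26 [−0.50, −0.03]. Tyrp1, Dct and Tyr were each far lower in both compared libraries than in either virus-free library, a gap many times the step between the routes. Oca2 was closer, with 18.3 CPM in TRP-1 T-MV, 21.9 in the MV left tumor, 26.7 in the remote tumor and 25.1 in CTX.

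Members outside that direction were Gpnmb and Tpcn2. Gpnmb, a melanosome glycoprotein that macrophages also make, had 2744 CPM in TRP-1 T-MV, 2477 in the MV left tumor, 6319.7 in the remote tumor and 5888 in CTX, for a log2 ratio of 0.15 [0.13, 0.17], and held 31.6% of the list's reads. Without it the list's summed ratio was −0.10 [−0.11, −0.08]. Mlana and Slc24a5 stood at −0.06 [−0.14, 0.01] and −0.05 [−0.14, 0.05], intervals that included equality, and Pmel was lower, at −0.04 [−0.07, −0.01]. In the remote tumor over CTX the same list had 6 members higher and 3 lower of 12, with a median of 0.06, so list medians of a few hundredths were found between the virus-free libraries too.

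Lineage factors and receptors had no common direction, with 1 higher and 2 lower of 11 and a median of 0.00. Mitf, the master regulator of pigment genes, had 168 CPM in TRP-1 T-MV, 181 in the MV left tumor, 480.2 in the remote tumor and 553 in CTX and was lower, at −0.11 [−0.18, −0.03]. Sox10 had 233 CPM in TRP-1 T-MV, 241 in the MV left tumor, 1029 in the remote tumor and 933 in CTX, a ratio of −0.05 [−0.12, 0.02], and Pax3 stood at −0.02 [−0.10, 0.07]. Mc1r, the receptor that turns on melanin synthesis, was lower, at −0.16 [−0.31, −0.01]. Kit, a receptor of melanocytes and of mast cells, was higher with 205 reads in TRP-1 T-MV, 112 in the MV left tumor, 141 in the remote tumor and 128 in CTX, a ratio of 0.62 [0.28, 0.96]. The mast cell protease Cpa3 had 31 reads against 16, a ratio of 0.70 [−0.21, 1.67]. Among transport genes, Rab38 and Mlph, which sort and move melanosomes, were lower, at −0.18 [−0.28, −0.07] and −0.12 [−0.22, −0.01], while Slc7a11, the cystine transporter, was higher by 0.53 [0.38, 0.68] and Rab32 by 0.27 [0.10, 0.44].

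Promoters of Tyrp1 and Tyr are shown because these genes lie just below equality together and carry the E-box through which MITF is known to act. The letters CATGTG stood on either strand in 5 of 8 melanosome genes with a RefSeq window, against 10.8% of compared genes. Capitals mark them, on the gene's strand, beginning at −46 in Tyrp1 (chr4:80833963-80834262, plus strand) and −21 in Tyr (chr7:87493463-87493762, minus strand), in windows of the same 300 bases as above.
Tyrp1: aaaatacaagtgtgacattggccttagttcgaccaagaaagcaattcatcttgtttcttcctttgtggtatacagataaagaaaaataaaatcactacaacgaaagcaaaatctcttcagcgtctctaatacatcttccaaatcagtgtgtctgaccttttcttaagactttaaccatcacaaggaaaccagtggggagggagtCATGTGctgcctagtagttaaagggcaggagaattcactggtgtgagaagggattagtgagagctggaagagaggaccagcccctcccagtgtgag
Tyr: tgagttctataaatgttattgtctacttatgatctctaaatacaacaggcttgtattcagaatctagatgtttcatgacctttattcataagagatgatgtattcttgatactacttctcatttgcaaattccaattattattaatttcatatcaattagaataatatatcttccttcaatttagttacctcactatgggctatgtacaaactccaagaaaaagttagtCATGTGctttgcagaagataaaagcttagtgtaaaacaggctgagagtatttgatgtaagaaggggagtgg
Mitf and these genes had ratios of −0.11, −0.08 and −0.22.

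Metabolic genes had a median at equality as a whole, and single pathways leaned to either side. Of 490 members compared in the metabolic lists, 77 were higher and 82 lower, with a median log2 ratio of 0.00 and quartiles of −0.07 and 0.08. Lysosome genes and those of arginine, tryptophan and adenosine metabolism leaned higher, glycolysis slightly so, and citrate cycle and complex I genes slightly lower. The other scalings move every ratio by at most 0.015, too little to turn these medians, so they do not check these directions. Between the remote tumor and CTX 146 of 488 were higher and 51 lower, with a median of 0.03. Medians of a few hundredths are thus of the size seen between the virus-free libraries.

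Lysosomal genes divided by function. The 9 cathepsins compared, proteases of the lysosome that phagocytes make in quantity, had 8 members higher and a summed log2 ratio of 0.38 [0.36, 0.40]. Ctss, the cathepsin of antigen-presenting cells, had 6289 reads in TRP-1 T-MV, 3620 in the MV left tumor, 333 in the remote tumor and 306 in CTX, a ratio of 0.54 [0.48, 0.60]. Ctsd, an aspartic protease of most cells, had 1356 CPM in TRP-1 T-MV, 1034 in the MV left tumor, 1109 in the remote tumor and 1066 in CTX, a ratio of 0.39 [0.36, 0.42]. Psap, precursor of the saposins that help degrade sphingolipids, had 2097 CPM in TRP-1 T-MV, 1430.2 in the MV left tumor, 901 in the remote tumor and 850.4 in CTX, a ratio of 0.55 [0.53, 0.58]. The 16 proton pump subunits and accessory proteins, present in all cells, had 3 higher, 3 lower and a summed ratio of −0.01 [−0.03, 0.01]. Their exception was Atp6v0d2, a subunit isoform of osteoclasts and macrophages, with 23.1 CPM in TRP-1 T-MV, 15.6 in the MV left tumor, 1.36 in the remote tumor and 0.417 in CTX, a ratio of 0.56 [0.32, 0.82].

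Ferritin and heme genes were higher within a mixed list. Of 23 genes of glutathione, NRF2 and iron handling, 7 were higher and 2 lower, with a median of 0.02. Fth1 and Ftl1, the ferritin chains, summed to 93436 reads in TRP-1 T-MV, 64284 in the MV left tumor, 215234 in the remote tumor and 184712 in CTX, for a log2 ratio of 0.29 [0.27, 0.30]. Fth1 alone had 2705 CPM in TRP-1 T-MV, 2065 in the MV left tumor, 2505 in the remote tumor and 2471 in CTX, a ratio of 0.39 [0.37, 0.41]. Hmox1, which frees iron from heme, was higher by 0.46 [0.38, 0.53] and Slc11a1, an iron and manganese exporter of phagosomes, by 0.59 [0.42, 0.75]. Tfrc, the receptor that brings iron into dividing cells, was lower, at −0.14 [−0.21, −0.08], and Txnrd1, a thioredoxin reductase, by −0.13 [−0.18, −0.08].

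Genes of arginine, tryptophan and adenosine metabolism were higher in 6 of 16 and lower in 2, with a median of 0.21. Besides Nos2 and Arg1, the arginine importer Slc7a2 had 135 CPM in TRP-1 T-MV, 89.7 in the MV left tumor, 0.352 in the remote tumor and 0.365 in CTX, a ratio of 0.59 [0.48, 0.69], and the itaconate enzyme Acod1 was higher by 0.60 [0.50, 0.70]. The kynurenine enzymes Kmo and Kynu were higher by 0.94 [0.35, 1.56] and 0.65 [0.12, 1.19]. The polyamine enzymes Odc1, Srm and Sms, used by dividing cells, stood at −0.04, 0.04 and −0.04, none called. Adk, adenosine kinase, and Asl, of the urea cycle, were the lower members, at −0.19 and −0.16.

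Glycolytic genes were higher in 11 of 23 and lower in 2, with a median of 0.08. The remote tumor over CTX gave the same counts, 11 and 2 of 23, with a median of 0.03. The regulators Pfkfb3 and Pfkfb4, which set the pace of phosphofructokinase, were higher by 0.34 [0.22, 0.46] and 0.52 [0.16, 0.89], the glucose transporter Slc2a1 by 0.27 [0.19, 0.34] and the lactate exporter Slc16a3 by 0.32 [0.22, 0.42]. Enzymes of the trunk of the pathway stood closer to equality, with Pkm at 0.10 [0.08, 0.12], Ldha at 0.02 [−0.01, 0.05], Aldoa at −0.01 [−0.03, 0.02] and Pgk1 at −0.07 [−0.10, −0.04]. Among hypoxia genes 5 of 21 were higher and 3 lower. Egln3 was higher by 0.59 [0.44, 0.73], Ndrg1 by 0.30 [0.19, 0.41] and Vegfa by 0.11 [0.04, 0.19], while Hif1a was lower, at −0.11 [−0.16, −0.05] and Car9, a common hypoxia marker, stood at −0.02 [−0.18, 0.14].

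Mitochondrial energy genes leaned lower by a few percent. Of 27 citrate cycle and pyruvate dehydrogenase genes, 2 were higher and 9 lower, with a median of −0.05. Cs, citrate synthase, had 401 CPM in TRP-1 T-MV, 423 in the MV left tumor, 602 in the remote tumor and 583 in CTX, for a log2 ratio of −0.08 [−0.13, −0.03]. All 3 subunit genes of succinyl-CoA ligase, Suclg1, Suclg2 and Sucla2, were lower, with a summed ratio of −0.18 [−0.26, −0.10]. Idh3a was lower, at −0.23 [−0.32, −0.14] while its partner subunits Idh3b and Idh3g were higher by 0.12 [0.00, 0.23] and 0.18 [0.07, 0.30]. Of 36 complex I genes, 10 were lower and 1 was higher, and the median was −0.06. Ndufb2, an accessory subunit, was the lowest with 208 reads in TRP-1 T-MV, 220 in the MV left tumor, 746 in the remote tumor and 723 in CTX, a ratio of −0.33 [−0.61, −0.05].

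The rest of the respiratory chain had medians near 0. Complexes III and IV had 2 higher and 1 lower of 21, with a median of 0.02, and ATP synthase 1 and 1 of 17, with −0.02. Of complexes III and IV 14 members were higher in the remote tumor over CTX. Cholesterol genes had 0 higher and 3 lower of 24, and fatty acid genes 2 and 4 of 25, where Acsl1, a fatty acid activating enzyme induced in macrophages, stood apart at 0.52 [0.38, 0.65] and the desaturases Scd1 and Scd2 were lower, at −0.13 [−0.22, −0.04] and −0.10 [−0.13, −0.06].

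Genes of dividing cells leaned lower with no member higher. In the proliferation list 13 of 29 were lower, with a median log2 ratio of −0.07. The remote tumor over CTX gave 8 higher and 5 lower of 29, with a median of 0.03. All genes with a mean of at least 1000 reads had a median of −0.02 between the routes. Mki67 had 445 CPM in TRP-1 T-MV, 482 in the MV left tumor, 344 in the remote tumor and 388 in CTX, a ratio of −0.12 [−0.16, −0.07]. Top2a, the topoisomerase of chromosome separation, had 308 CPM in TRP-1 T-MV, 342 in the MV left tumor, 566 in the remote tumor and 620.4 in CTX, a ratio of −0.15 [−0.21, −0.10]. The replication helicase genes Mcm2 to Mcm7 summed to a ratio of −0.08 [−0.10, −0.05]. Pentose phosphate and nucleotide synthesis genes together had 3 higher and 10 lower of 34, with a median of −0.05. Gart, Paics and Pfas, purine synthesis enzymes, were lower, at −0.13, −0.11 and −0.14, and Rrm1 and Rrm2, the ribonucleotide reductase subunits, by −0.11 and −0.08. The higher members, Pgd, G6pdx and Tkt, belong to the pentose phosphate pathway and stood at 0.22 [0.15, 0.30], 0.16 [0.06, 0.26] and 0.07 [0.01, 0.13].

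Markers of other cells that a tumor sample can hold were mostly not called. Endothelial genes had 0 higher and 0 lower of 12, with a summed CPM of 349.8 in TRP-1 T-MV and 348 in the MV left tumor. Eng alone held 84.2% of those reads, and without it the summed log2 ratio was −0.04 [−0.18, 0.10]. Fibroblast and matrix genes had 2 higher and 0 lower of 18, with 908 and 883 CPM. Without Sparc, which held most of those reads, the summed log2 ratio was 0.13 [0.07, 0.18]. The called members were Mmp2 at 0.75 [0.49, 1.02] and Fn1 at 0.36 [0.25, 0.46], whereas Col1a1 and Col1a2 stood at −0.02 and −0.03. Keratinocyte genes had 2 members compared and none called, and muscle genes 0 higher and 1 lower of 10. Of 3 adipocyte genes compared, Lpl, a lipoprotein lipase that macrophages also make, was higher with 2852 reads in TRP-1 T-MV, 1561 in the MV left tumor, 170 in the remote tumor and 94 in CTX, a ratio of 0.62 [0.53, 0.71], and no other was called. The hemoglobin genes Hba-a1, Hba-a2, Hbb-bs and Hbb-bt are listed at 0 in all 4 libraries. The chemokine genes of platelets Pf4 and Ppbp, also known in myeloid cells, were higher by 0.61 [0.50, 0.73] and 0.56 [0.30, 0.82], but Gp9, of the platelet glycoprotein complex, had 0 reads against 5.

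Few single genes differed by 2-fold or more, and most of them rested on few reads. The gene with the interval bound farthest above equality was Tnfsf13b (chr8:10006467-10039072, plus strand), which encodes the B cell survival factor BAFF made by myeloid cells, with 103 reads in TRP-1 T-MV, 29 in the MV left tumor, 0 in the remote tumor and 5 in CTX, for a log2 ratio of 1.58 [0.97, 2.22]. Hhex, a homeobox factor of blood and endothelial development, had 62 reads in TRP-1 T-MV, 21 in the MV left tumor, 4 in the remote tumor and 6 in CTX, a ratio of 1.31 [0.57, 2.10]. Ptgr1, which inactivates leukotriene B4, had 124 reads in TRP-1 T-MV, 50 in the MV left tumor, 5 in the remote tumor and 1 in CTX, a ratio of 1.06 [0.57, 1.56], and Nuak2, a stress kinase, 1.03. All 4 were nearly absent from the virus-free libraries. Erdr1 had 420 reads in TRP-1 T-MV, 165 in the MV left tumor, 178 in the remote tumor and 209 in CTX, a ratio of 1.09 [0.83, 1.36], and was not placed by the annotation used. Zfp811, a zinc finger gene, had 50 reads in TRP-1 T-MV, 15 in the MV left tumor, 2 in the remote tumor and 2 in CTX.

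Below equality, after Lyz1, came Serpina1a (chr12:103853589-103863562, minus strand), an antitrypsin paralog of liver, with 3 reads in TRP-1 T-MV, 16 in the MV left tumor, 11 in the remote tumor and 11 in CTX, a ratio of −2.67 [−5.09, −0.86]. Its family of near-identical genes makes that value uncertain. Nxpe4, Scn1a, Tulp2, Hspb7, Sox21, Wdr93 and Rasip1 were also among the 10 lowest, at −1.11, −1.15, −1.45, −1.38, −1.08, −1.25 and −1.12. These 7 had between 23 and 69 reads in the MV left tumor. Of the 29 genes that passed the 2-fold rule in the lower direction, Lyz1 and Cxcl12 were the only ones in any list.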

How the data were processed

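RNA from about 100 mg of tumor tissue per mouse was sequenced, per the labels' protocols. The authors deposited raw counts per gene for each of 4 libraries. The submitters' processing notes name HISAT2, featureCounts and mm10. The sources used here give no versions, annotation, strand or multi-mapping settings.

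TMM factors came from edgeR 4.0.16 (R 4.3.3) over the 4 libraries. Genes with a mean count of 10 or more were kept. Log2 ratios were TRP-1 T-MV over the MV left tumor, with exact 95% conditional binomial (Clopper-Pearson) intervals. A library with 0 reads was set to a floor of 3 counts, and no ratio was given where both had 3 or fewer. With 1 library per group no count model or p-value was computed. Summed ratios add reads over compared members. Positions are from GENCODE M21 and promoters from RefSeq, both on GRCm38. Scripts were tested on simulated data. Genes were named as the 10 highest and 10 lowest by interval bound past 2-fold (predicted genes left out) and, in each list, the 3 highest, 3 lowest and 3 most read, with Tyrp1, Y-linked genes and Xist. Others in the text were chosen after their values were seen, as were groups within lists. The members and lists were chosen with earlier results of these data known. A T cell group without virus in the labels was not analysed here. A few genes that the naming rule selects are not reported here.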

Additional observations from a re-analysis of the deposited data

How the results depend on the processing

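With 1 library a group, leaving out a replicate was not possible. No paired analysis was possible because neither route has a second library. The other scalings were TMM over the 2 libraries alone, DESeq2 size factors, total counts, the upper quartile and a housekeeping scale. TMM without structural RNA, Lars2 and ribosomal protein genes was used as well. These scalings moved every log2 ratio by between −0.005 and 0.015. Over them the genes called numbered 1404 to 1657 higher and 1161 to 1608 lower, and those that also reached a ratio of 2 numbered 72 to 76 and 27 to 29. Each scaling adds a constant to every ratio, so theme medians moved together, to 0.54 to 0.56 for myeloid, 0.07 to 0.09 for lymphoid, −0.02 to 0.00 for pigment and −0.01 to 0.01 for metabolic genes. The summed ratio of structural and uncapped RNA turned from −0.01 to 0.0018 with TMM over the 2 libraries and 0.0023 with DESeq2 size factors, by the size of the shift itself. Thresholds moved the counts further. With no minimum count, 127 genes reached a ratio of 2 in the higher direction and 67 in the lower, and with a mean of at least 50 they were 10 and 3. With a 99% interval, 969 genes were called higher and 746 lower, of which 41 and 9 reached a ratio of 2. With a ratio of 1.5 in place of 2, 326 and 71 passed. Depth limits single genes: the 2-fold calls rest mostly on genes with few reads.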

Other observations

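Genes with deep coverage give the sharpest view of the pair. Of 3793 genes with a mean of at least 1000 reads over the compared libraries, the central 95% lay between −0.18 and 0.39 on the log2 scale, and 34 differed by at least 1.5-fold, all of them higher in TRP-1 T-MV. Lists held 21 of these. The 13 outside the lists, picked by this threshold after their values were seen, included several further myeloid genes. Csf2rb and Csf2rb2, receptor chains for GM-CSF and related cytokines, were higher by 0.72 [0.66, 0.77] and 0.66 [0.58, 0.74]. Csf2rb had 476 CPM in TRP-1 T-MV, 289 in the MV left tumor, 2.81 in the remote tumor and 2.45 in CTX. C3, the central complement protein, was higher by 0.65 [0.57, 0.74], its fragment receptor C3ar1 by 0.66 [0.54, 0.79], and Cfp, which stabilises the convertase, by 0.62 [0.49, 0.76]. Mmp12, the macrophage elastase, had 923 CPM in TRP-1 T-MV, 593 in the MV left tumor, 4.27 in the remote tumor and 3.86 in CTX, a ratio of 0.64 [0.60, 0.68]. Tgm2, Tgfbi, Thbs1, Pla2g7, Adam8, Sema4a and Lilrb4a completed the 13, between 0.59 and 0.72. Between the remote tumor and CTX 0 of 5039 genes of that depth differed by 1.5-fold.

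Ribosome and autophagy genes showed no common direction. Cytosolic ribosomal protein genes had 14 higher and 20 lower of 82, with a median of 0.00, and mitochondrial ribosomal protein genes 3 and 9 of 78, with −0.03. Rps27 was the lowest cytosolic member at −0.52 [−1.29, 0.23]. Many of these genes have processed copies whose reads can be misassigned. Autophagy genes had 3 higher and 2 lower of 24, and genes of amino acid synthesis and the ATF4 stress response 3 and 3 of 29. Hamp, which encodes the iron hormone hepcidin, had 28 reads in TRP-1 T-MV, 12 in the MV left tumor, 8 in the remote tumor and 7 in CTX, a ratio of 0.97 [−0.05, 2.08]. Summed over whole chromosomes, log2 ratios lay between −0.03 and 0.04 for the autosomes and X, and the 4 Y-linked genes gave 0.37 [0.16, 0.59].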
